A study of Mus musculus with 2 samples.

Results

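Messenger RNA of 10 nucleolar ribosome biogenesis genes was described in mouse leukemia stem cells: Npm1, Ncl, Fbl, Nop56, Nop58, Dkc1, Polr1a, Polr1b, Ubtf and Nolc1. The genes were chosen by symbol, and all 10 were found among 43346 gene rows that carry an Ensembl identifier. The cells were infected with Friend virus, a mouse retrovirus complex that causes erythroleukemia, and the labels describe them as CD34+, CD133+, Kit+ and Sca1+. Male and female adults were pooled, aged 10 to 12 weeks, and the labels require a strain with the allele Fv2s. The series had 1 group and 2 libraries of RNA described as polyadenylated, numbered as biological replicates 1 and 2. No uninfected or unsorted cells were included, so no difference between conditions could be tested.

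Ribosome synthesis starts in the nucleolus, where RNA polymerase I transcribes the ribosomal DNA repeats into a long precursor. Small nucleolar ribonucleoproteins (snoRNPs) then modify that precursor: box C/D particles methylate riboses, and box H/ACA particles convert uridines to pseudouridines. Assembly factors fold and cleave the precursor into the small and large subunits. Growing and dividing blood progenitors depend on this pathway, erythroid cells reduce nucleolar activity as they mature, and NPM1 is one of the genes most often mutated in human acute myeloid leukemia.

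Levels are the deposited TPM, a share of transcripts corrected for their length, given for each library and as mean ± SD (n = 2). The libraries held 23575315 expected counts in replicate 1 and 22541765 in replicate 2, where an expected count is an estimated number of sequenced fragments. Replicates were also compared by the log2 ratio of scaled counts, replicate 2 over replicate 1, with an exact binomial 95% interval that covers counting error only. A gene is called apart where that whole interval lies beyond 2-fold. Nothing in the labels says that the libraries came from separate animals, so the spread between them may be technical. The 12 erythroid markers were at 1 TPM or more in both libraries and summed to 114000 TPM in replicate 1 and 224000 TPM in replicate 2. Of the 4 sort markers, Kit and Ly6a reached 1 TPM in both libraries, Cd34 had 1.80 and 0.27 TPM, and Prom1, which encodes CD133, had 0.06 and 0 TPM. Fewer cells of a type and less RNA per cell cannot be told apart in bulk RNA.

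All 10 genes were detected at 1 TPM or more in both libraries, against 41.6% of 21474 protein-coding genes. Ncl was the most abundant in both libraries and Dkc1 the least. Together they took 0.124% of the TPM of replicate 1 and 0.0815% of that of replicate 2. In the order of mean TPM (Ncl, Fbl, Nop56, Ubtf, Nolc1, Npm1, Nop58, Polr1b, Polr1a, Dkc1), 2 of the 9 neighbouring pairs had values that did not overlap between the genes. Those were Ncl over Fbl and Ubtf over Nolc1, and the other 7 pairs overlapped.

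**Figure D1:**
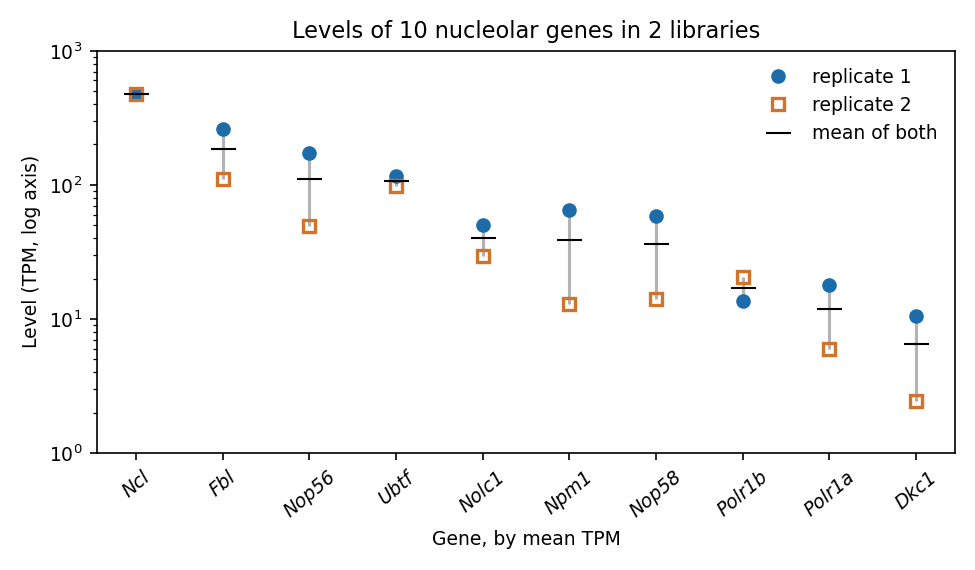
Deposited TPM (log axis) of each gene in replicate 1 (filled circles) and replicate 2 (open squares), with the mean of both as a black bar. Ncl and Ubtf are close together in the libraries, and Polr1b is the only gene of the 10 with a higher TPM in replicate 2.

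The libraries differed more for some of these genes than for others. Of the 10 genes, 4 were apart, against 23.4% of 11708 protein-coding genes with at least 20 counts. Npm1, Nop58 and Dkc1 were lower in replicate 2, where 14.6% of protein-coding genes were called in that direction, and Polr1b was higher, where 8.78% were called. The remaining 6 genes were not apart, and 9 of 10 point estimates lay below 0, against 51.6% of protein-coding genes. The median log2 ratio was -0.80 over the 10 genes and -0.04 over all protein-coding genes tested. Ncl and Ubtf, counted among the 9, were themselves at -0.04, with intervals that reach 0.01. With scaling to total counts the median of all genes moved to -0.47, and with ratios of TPM to -0.44. The split of the calls was then 6 lower and 0 higher under either, with Polr1b no longer apart. Fbl, Nop56 and Polr1a were then called lower too. Of all protein-coding genes, 23.1% were lower and 3.16% higher with total counts, and 24.5% and 3.99% with ratios of TPM. Beside these ratios, globin genes held 11% and 22.2% of the TPM of replicates 1 and 2, and mitochondrially encoded genes 3.92% and 0.793%. The part of these shares in the result was not tested. Summed marker levels in replicates 1 and 2 were 1020 and 1380 TPM for macrophages (7 of 10 at 1 TPM or more in both), 698 and 293 TPM for B lineage (5 of 8), 80.3 and 76.7 TPM for T and NK cells (3 of 7), 57.5 and 32.2 TPM for granulocytes (6 of 8), and 131 and 125 TPM for stromal and endothelial cells (4 of 8, Dcn at 0). Within some lists the calls went different ways: of the macrophage markers 2 were lower (Adgre1 and Cd68) and 1 higher (C1qc) in replicate 2. Of the erythroid markers 5 were lower and 2 higher (Hba-a1 and Hba-a2), and of the granulocyte markers 1 was lower and 1 higher. The B lineage list and the stromal and endothelial list each had 2 lower and 0 higher, and the T and NK list had 0 of either. The part of these markers in the result was not tested either.

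**Figure D2:**
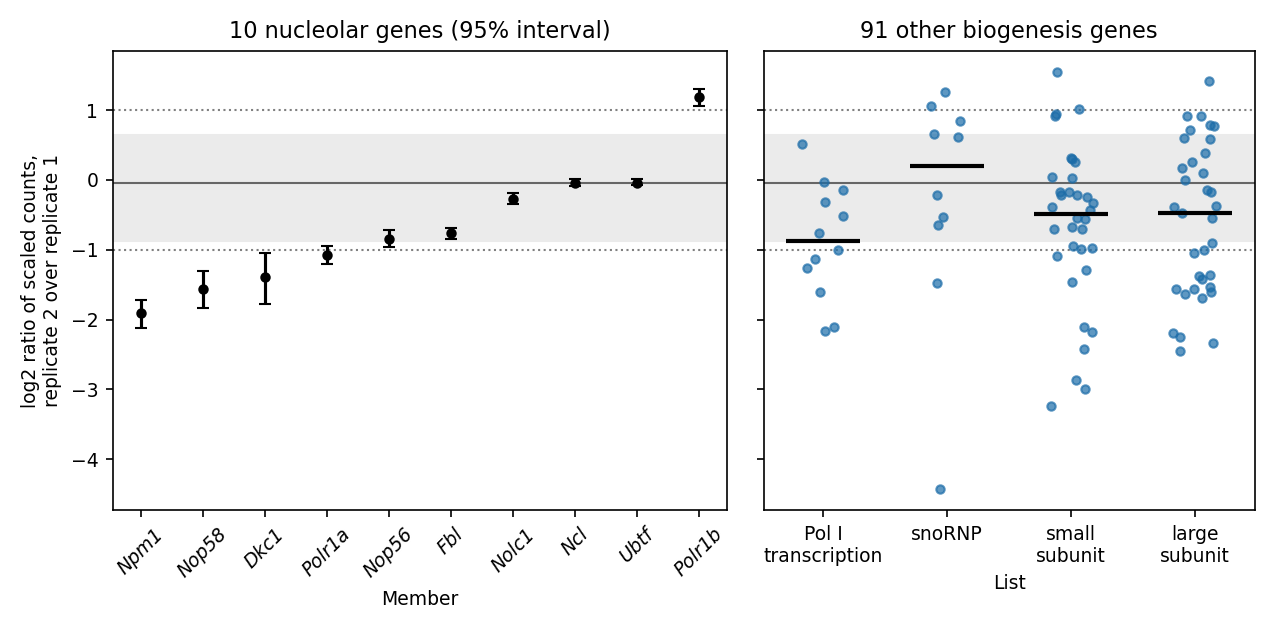
Log2 ratio of scaled counts, replicate 2 over replicate 1, for the 10 genes with their 95% intervals (left) and for 91 other ribosome biogenesis genes in 4 lists with their medians (right). The grey band spans the quartiles of all protein-coding genes, -0.88 to 0.64, the solid line is their median of -0.04, and dotted lines mark 2-fold. Npm1, Nop58 and Dkc1 lie wholly below the lower dotted line and Polr1b above the upper one.

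Among the genes of RNA polymerase I transcription, the 2 largest subunits of the enzyme differed between the libraries in opposite directions. Polr1a encodes the largest subunit (ENSMUSG00000049553.9, chr6:71909053-71984935, plus strand, mm10). It had 17.82 TPM in replicate 1 and 6.01 TPM in replicate 2 (11.9 ± 8.35, SD, n = 2), from 2102 and 712 counts. Its log2 ratio of -1.07 had an interval from -1.20 to -0.95, which crosses 2-fold. The ratio was -1.5 with scaling to total counts and -1.57 as a ratio of TPM, both of them apart. An antisense gene inside Polr1a, Gm26628, had 0 counts in both libraries. Polr1b encodes the second largest subunit, which forms the catalytic core together with the largest (ENSMUSG00000027395.11, chr2:129100995-129126594, plus strand). It had 13.60 TPM in replicate 1 and 20.39 TPM in replicate 2 (17.0 ± 4.80, SD, n = 2), from 929 and 1494 counts. Its log2 ratio was 1.18 with an interval from 1.06 to 1.30, and was 0.75 with scaling to total counts and 0.58 as a ratio of TPM, neither of them apart. Polr1a was therefore the higher of the pair in replicate 1 and Polr1b in replicate 2.

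Ubtf encodes the upstream binding factor, an HMG-box protein that binds ribosomal DNA and keeps it open for transcription (ENSMUSG00000020923.13, chr11:102304560-102319742, minus strand). It had 115.76 TPM in replicate 1 and 98.85 TPM in replicate 2 (107 ± 12.0, SD, n = 2). Its 8018 and 5568 counts gave a log2 ratio of -0.04, with an interval from -0.08 to 0.01. The level of Ubtf was above that of Polr1a and Polr1b in both libraries.

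Ubtf makes 2 well-known protein forms: UBF1 activates transcription by RNA polymerase I, while UBF2 lacks part of an HMG box and has little such activity. The coding exon that separates them was read from the annotated transcripts, because the libraries differed in its share. It has 111 bases (37 codons), is present in Ubtf-202 and missing from the leading transcript Ubtf-213, and lies at chr11:102310926-102311036 (mm10, minus strand, shown 5′ to 3′ from the GENCODE M21 transcript).
Ubtf exon: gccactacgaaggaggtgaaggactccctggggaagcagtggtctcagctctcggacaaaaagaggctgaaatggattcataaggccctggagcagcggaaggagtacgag
The 4 transcripts with this exon held 1884 counts in replicate 1 and 530 in replicate 2, and the 5 without it held 6036 and 4801. Forms with the exon made up 26.2% of the TPM of both kinds in replicate 1 and 14.1% in replicate 2. The authors' posterior mean TPM gave 25.7% and 14.9%. Transcripts without the exon were thus the more abundant kind in both libraries. These shares are estimates that divide fragments among overlapping transcripts, and they have no replicate check beyond the 2 values.

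The messages for the box C/D snoRNP proteins Fbl, Nop56 and Nop58 were detected in both libraries, and of these Nop58 was apart. Fbl encodes fibrillarin, the methyltransferase of the particle (ENSMUSG00000046865.6, chr7:28169710-28179269, plus strand). It had 261.69 TPM in replicate 1 and 109.91 TPM in replicate 2 (186 ± 107, SD, n = 2), from 5307 and 2223 counts. Its log2 ratio was -0.76 with an interval from -0.84 to -0.69, so it was not apart on its own row.

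A nearly identical annotated pseudogene, Gm5812 (ENSMUSG00000051639.3, chr17:6121208-6122164), bears on that value. Its 957 bases matched the Fbl coding sequence of 981 bases over 954 aligned bases with 99.6% identity, 4 mismatches and 1 gap of 27 bases. All 4 mismatches fall in 60 bases, shown here because only these letters and the gap separate the aligned sequences. The Fbl stretch covers coding positions 274 to 333, counted from 1 at the start codon, and the Gm5812 stretch its positions 247 to 306. Both are 5′ to 3′ from GENCODE M21 transcripts, with differing bases in capitals.
Fbl: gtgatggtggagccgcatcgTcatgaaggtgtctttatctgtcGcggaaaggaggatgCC
Gm5812: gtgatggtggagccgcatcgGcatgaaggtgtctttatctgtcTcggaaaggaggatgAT
Gm5812 was given 1619.25 counts in replicate 1 and 26.37 in replicate 2, which is 23.4% and 1.17% of the counts of the pair. The authors' posterior SD of the Fbl count was 107.24 in replicate 1 and 3.85 in replicate 2, and the values for Gm5812 were the same. With pseudogene rows added, Fbl had 6926 and 2249 counts and a log2 ratio of -1.13, with an interval from -1.20 to -1.06. On that count, an alternative chosen after seeing the data, Fbl was apart, and 5 of the 10 genes were. The level of Fbl therefore depends on how fragments were divided between the 2 rows. Whether the counts of the pseudogene row came from Fbl was not tested.

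**Figure D3:**
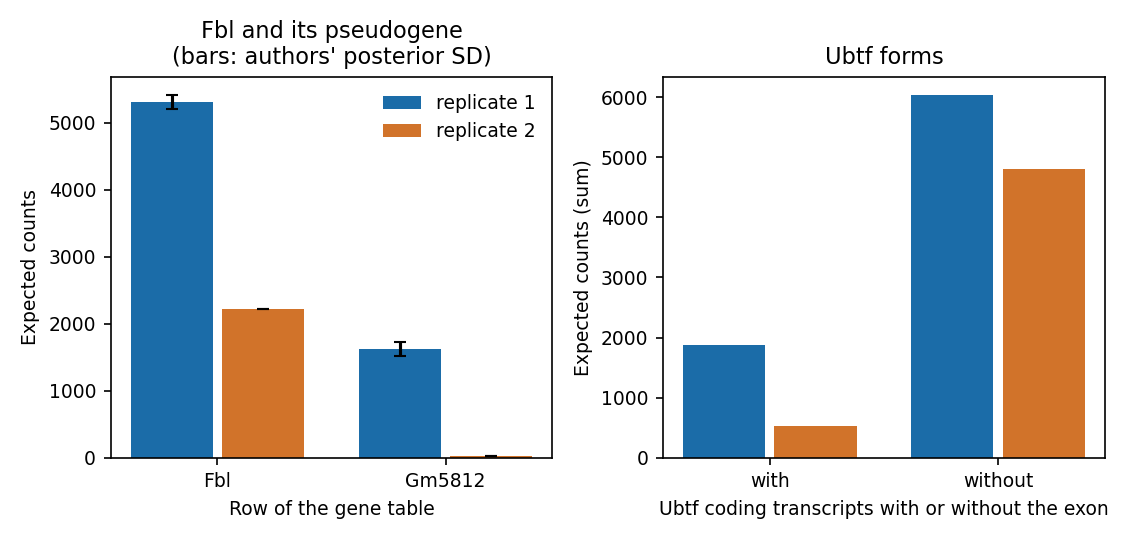
Left, expected counts of Fbl and its pseudogene Gm5812 in each library, with the authors' posterior SD as error bars. Right, summed expected counts of the Ubtf coding transcripts with and without the 111-base exon. Gm5812 has 1619.25 counts in replicate 1 and 26.37 in replicate 2, and the forms with the exon have 1884 and 530 counts.

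Nop56 and Nop58 encode the paired scaffold proteins that hold fibrillarin on the box C/D RNA. Nop56 (ENSMUSG00000027405.12, chr2:130274430-130279313, plus strand) had 171.41 TPM in replicate 1 and 49.13 TPM in replicate 2 (110 ± 86.5, SD, n = 2), from 1891 and 752 counts. Its log2 ratio was -0.84, with an interval from -0.96 to -0.72. Nop58 (ENSMUSG00000026020.5, chr1:59684971-59719044, plus strand) had 58.83 and 14.06 TPM (36.4 ± 31.7, SD, n = 2), from 644 and 155 counts. Its log2 ratio of -1.56 had an interval from -1.83 to -1.31, so Nop58 was apart and Nop56 was not. That split depends on the scaling. The ratio of Nop56 was -1.27 with total counts and -1.8 as a ratio of TPM, both of them apart. Nop56 shares 5 bases at its 3′ end with Idh3b on the other strand, and no source used here says whether the counting used strand. The 4th core protein of the particle, Snu13, which binds the kink-turn of the RNA, showed the widest ratio of the 91 other pathway genes. It had 324.16 TPM in replicate 1 and 10.47 TPM in replicate 2, from 7141 and 236 counts, with a log2 ratio of -4.43 and an interval from -4.62 to -4.24. Of the 11708 protein-coding genes tested, 116 had a ratio at or below that of Snu13. The 5 of its 9 annotated pseudogenes that are in the tables held 14.9 and 88.8 counts.

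Dkc1 represents the box H/ACA snoRNP in the set: it encodes dyskerin, the pseudouridine synthase, which also belongs to telomerase (ENSMUSG00000031403.10, chrX:75095854-75109777, plus strand). It had 10.55 TPM in replicate 1 and 2.45 TPM in replicate 2 (6.5 ± 5.73, SD, n = 2). Its 293 and 79 counts had exact Poisson 95% intervals of 260 to 329 and 62.5 to 98.5. The log2 ratio was -1.39 with an interval from -1.78 to -1.04, close to the 2-fold limit, and with a prior count of 5 it was -1.34 and no longer apart. Dkc1 shares 45 bases with Mpp1 on the other strand. Of its partners in the particle, the core protein Nhp2 was also lower in replicate 2, with 261.50 and 114.66 TPM. Its log2 ratio of -0.65 had an interval from -0.73 to -0.57, so Nhp2 was not apart. Gar1, another core protein, was higher in replicate 2 with 56.83 and 110.18 TPM, a log2 ratio of 1.26 and an interval from 1.14 to 1.37.

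Nolc1 encodes the phosphoprotein Nopp140, a chaperone that accompanies both kinds of snoRNP between Cajal bodies and the nucleolus (ENSMUSG00000015176.9, chr19:46075863-46085530, plus strand). It had 50.30 TPM in replicate 1 and 29.61 TPM in replicate 2 (40 ± 14.6, SD, n = 2), from 3479 and 2054 counts. The log2 ratio was -0.27 with an interval from -0.35 to -0.19, within the quartiles of all protein-coding genes.

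The abundant nucleolar phosphoproteins Npm1 and Ncl gave the widest and 1 of the narrowest ratios of the set, over all transcripts of each gene. Npm1 encodes nucleophosmin, a histone and ribosome assembly chaperone (ENSMUSG00000057113.9, chr11:33152287-33163206, minus strand). It had 65.27 TPM in replicate 1 and 13.02 TPM in replicate 2 (39.1 ± 36.9, SD, n = 2), from 1294 and 244 counts. Replicate 1 was higher by 3.77-fold in scaled counts, a log2 ratio of -1.91 with an interval from -2.12 to -1.72. Its percentile among protein-coding genes was 91.1 in replicate 1 and 79.8 in replicate 2. The 8 Npm1 pseudogenes in the tables held 105.32 and 8.0 counts, most of them in Gm14681, with 101.32 and 7.0 counts. Adding them gave a log2 ratio of -1.98, and Npm1 stayed apart.

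Ncl encodes nucleolin, which binds the ribosomal RNA precursor (ENSMUSG00000026234.8, chr1:86344719-86359400, minus strand). It had 475.77 TPM in replicate 1 and 471.99 TPM in replicate 2 (474 ± 2.67, SD, n = 2), at the percentiles 98.8 and 99.0 of protein-coding genes. It had 7689 and 5317 counts, and the log2 ratio was -0.04 with an interval from -0.09 to 0.01. The SD was 0.564% of the mean TPM for Ncl and 94.4% for Npm1. For Ncl that closeness depends on the scale. With scaling to total counts its log2 ratio was -0.47, as was the median of all protein-coding genes. Its TPM also used a different transcript length in each library, given below.

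The Ncl level in TPM rests on a short transcript that is not annotated as coding. Ncl-205 is a retained-intron form of 601 bases, at chr1:86350496-86351211, of which 425 bases are shared with the coding transcript Ncl-201 of 8202 bases. It held 87.2% of Ncl TPM in replicate 1 and 94.1% in replicate 2, from 3840.91 and 4061.27 counts. The full coding transcript Ncl-201 held 1.59% and 0.46% of TPM, from 1204.88 and 343.94 counts. On these estimated counts Ncl-201 was lower in replicate 2, while Ncl-205 was not. The narrow ratio of the gene therefore does not describe its coding transcript. The retained-intron forms of Ncl together held 96.5% and 97.0% of its TPM. The mean transcript length that the authors' table used for Ncl was 950.56 bases in replicate 1 and 707.89 in replicate 2. Counts therefore divide otherwise than TPM: Ncl-201 had 15.7% and 6.47% of the counts of the gene.

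**Figure D4:**
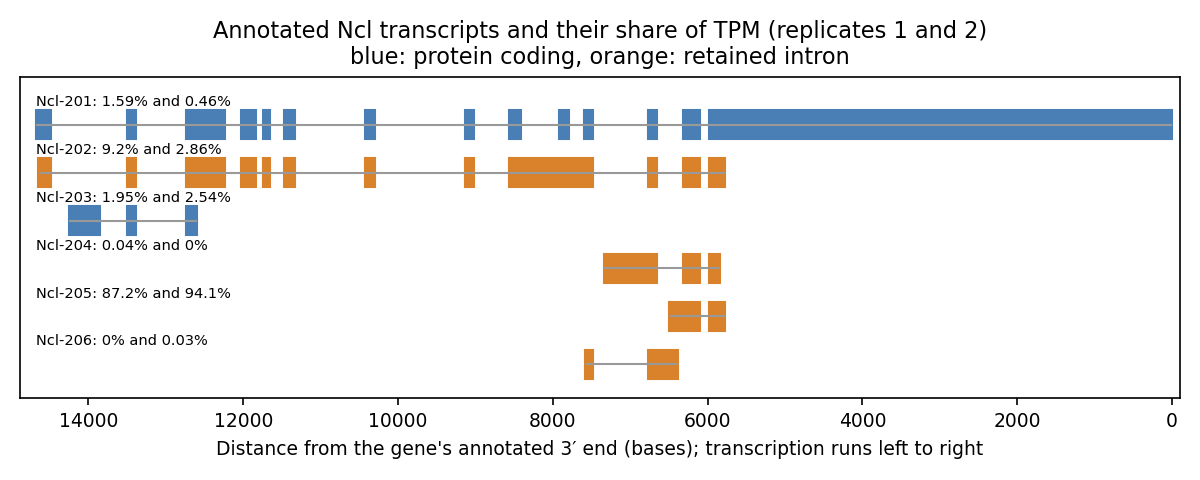
Annotated Ncl transcripts drawn to scale by distance from the gene's 3′ end, with exons as boxes and the share of Ncl TPM in replicates 1 and 2 beside each name. Ncl-205, a form of 2 exons inside the gene, holds 87.2% and 94.1%.

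Per kilobase of coding sequence and per library total, which does not use the estimated transcript lengths, the order of the genes changed. In counts per coding kilobase and 1000000 counts, Fbl had 229 in replicate 1 and 101 in replicate 2, Ncl 154 and 111, and Ubtf 148 and 108, which were the highest 3 in both libraries. All counts of a gene were used, whatever the class of the transcript. Of the Ncl counts, 83.1% and 91.2% were in retained-intron forms, so its values are not levels of coding message. Nop56 moved from rank 3 by TPM in replicate 1 to rank 6, with 46.1 and 19.2. Of the Nop56 counts, 50.4% and 34.3% were in retained-intron forms, so the same limit holds for it. Nolc1 moved from rank 7 to rank 4, with 70.1 and 43.3. Dkc1 was lowest on both scales, with 8.14 and 2.30. The place of Ncl above Fbl in replicate 1 thus depended on the length used.

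Retained-intron transcripts also carried part of Nop56 and Ubtf. They held 76.1% of Nop56 TPM in replicate 1 and 57.0% in replicate 2, and 5.67% and 29.7% of Ubtf TPM. Over 2648 protein-coding genes of at least 10 TPM that have such a transcript, the median share was 4.39% and 3.99%, and the upper decile began at 75.3% and 80.9%. Of the 4 genes of the set that met those limits, only Ncl was above the upper decile in both libraries. Nop56 was above the median in both libraries. In Ubtf a single form, Ubtf-212, held 0.40% and 24.97% of TPM, on 3.21 and 166.38 counts. A leading transcript of this class was found in 20.3% of the background genes.

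**Figure D5:**
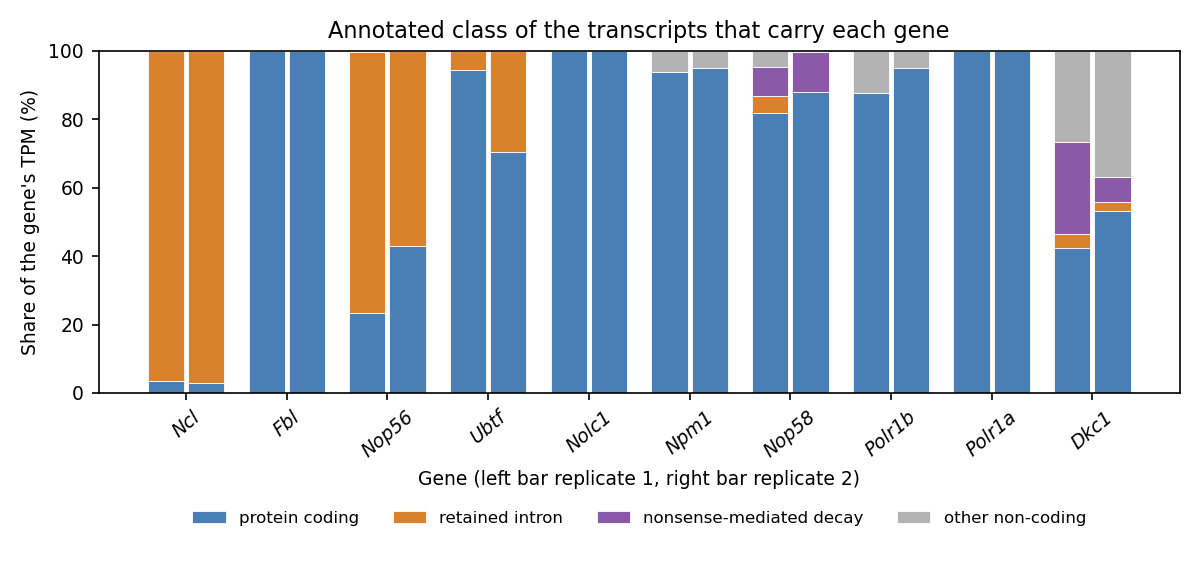
Share of each gene's TPM (%) by the annotated class of its transcripts, left bar replicate 1 and right bar replicate 2. Retained-intron forms hold 96.5% and 97.0% of Ncl and 76.1% and 57.0% of Nop56, while Fbl, Nolc1 and Polr1a have 1 transcript each.

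Fbl, Polr1a and Nolc1 have 1 transcript in the tables, and the leading transcript was the same in both libraries for 5 of the other 7 genes, or 4 of the 6 with at least 10 TPM. Among 4187 protein-coding genes of at least 10 TPM with 2 or more transcripts, 71.8% kept their leading form. Npm1-204 led Npm1 with 84.1% and 72.5% of TPM, Polr1b-202 led Polr1b with 87.6% and 95.03%, and Ubtf-213 led Ubtf with 38.4% and 45.5%. Npm1-204 has 771 coding bases, and the Npm1 form with the longest coding sequence, of 876 bases, held 4.69% and 0% of TPM. In Dkc1 the coding form (ENSMUST00000033776.10) held 42.5% and 53.1% of TPM, and the non-coding Dkc1-203 held 26.5% and 34.5%. A form annotated for nonsense-mediated decay (ENSMUST00000153844.3) held 27.04% and 7.4% of TPM. These 2 short forms rest on few counts, 22.57 and 6.72 for Dkc1-203 and 29.55 and 1.86 for the other. By counts the coding form held 80.7% and 87.1%. By posterior mean TPM it held 34.37% and 30.26%, so the direction of its share depends on the estimate. Nop56 and Nop58 were the exceptions. Nop56 was led by a retained-intron form of 445 bases (ENSMUST00000161025.1) in replicate 1 (65.7%, against 23.1% in replicate 2) and by a coding form of 1490 bases (ENSMUST00000146454.4) in replicate 2 (25.6%, against 1.22%). Nop58 was led by Nop58-203 in replicate 1 (30.9%, against 4.49%; by counts, by ENSMUST00000027174.5, with 124.17 counts to 118.08) and by Nop58-206 in replicate 2 (49.85%, against 20.99%). The replicate 2 lead of Nop58 rests on 69.2 counts.

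Several of these genes host small nucleolar RNAs in their introns, so that 1 transcript can supply both a snoRNP protein and a guide RNA. The tables held 13 small nucleolar RNA rows inside the 10 genes: 3 in Ncl, 5 in Nop56, 4 in Nop58 and 1 in Dkc1. All 13 had 0 counts in both libraries. Of these, 10 had an effective length of 0 in both, so the tables could not assign them any fragment, and these libraries do not measure them. One of them, Gm23187, lies inside an exon of the 445-base form that led Nop56 in replicate 1, at chr2:130277195-130277280 (mm10, plus strand). It is shown because the leading form of that library contains it whole, with its last CTGA, the letters of a D box, in capitals. The canonical C box letters TGATGA do not occur in it.
Gm23187: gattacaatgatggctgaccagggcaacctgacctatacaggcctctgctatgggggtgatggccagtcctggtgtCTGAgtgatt

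Promoter windows from RefSeq (GRCm38.p6, 250 bases before to 50 after the start) were matched for 8 of the 10 genes, all but Npm1 and Fbl. The E-box CACGTG, the letters that MYC and MAX bind, occurred on either strand in the windows of 0 of 8 genes, against 6.02% of 32851 windows. GGGCGG occurred in 6 of 8 genes against 32.7% of windows, CCAAT in 3 against 33.8%, and TATAAA in 1, Dkc1, against 12.4%. TTCCCAGAA, the letters of a STAT-type element, occurred in Nop58 and Polr1b, against 1.10% of windows. That motif was chosen after its values were seen, so its share is no test of enrichment. These counts are per gene where some genes have several windows, and a match is a description of the letters only. The stretches that hold TTCCCAGAA are shown because the genes are apart between the libraries in opposite directions. They end before the annotated gene start, at chr1:59684940-59684970 and chr2:129100961-129100994 (plus strand), with the motif in capitals.
Nop58 promoter: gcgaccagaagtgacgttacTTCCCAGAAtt
Polr1b promoter: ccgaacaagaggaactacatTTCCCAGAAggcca

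The wider pathway was read from a list of 91 other ribosome biogenesis genes in 4 groups. All 91 were found and tested, and 80 reached 1 TPM in both libraries. Of the 91 genes, 24 were apart, 21 lower and 3 higher in replicate 2, next to the protein-coding shares of 14.6% and 8.78% given above. Their median log2 ratio was -0.52, and 63 of 91 point estimates lay below 0. With scaling to total counts the split was 35 lower and 0 higher, and with ratios of TPM 38 lower and 0 higher, beside protein-coding shares of 23.1% lower for total counts and 24.5% lower for ratios of TPM.

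The 12 other genes of RNA polymerase I transcription had a median log2 ratio of -0.88, with 2 lower, 0 higher and 10 not apart. Protein-coding genes had shares of 14.6% lower and 8.78% higher. Taf1c, a subunit of the selectivity factor SL1, was the most abundant, with 83.49 TPM in replicate 1 and 73.71 TPM in replicate 2. Polr1d, a subunit shared by RNA polymerases I and III, followed with 59.02 and 38.24 TPM, and neither was apart. Taf1b, another subunit of SL1, was scarcest, with 1.26 and 0.19 TPM from 47 and 7 counts, and was lower in replicate 2 with a log2 ratio of -2.17 and an interval from -3.65 to -1.10. The other gene apart, named after its values were seen, was Taf1d, also of SL1, with 2.10 and 0.40 TPM. Genes of the same factor thus lay at both ends of the levels in this group.

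The 10 other snoRNP genes had a median log2 ratio of 0.20, with 2 lower, 1 higher and 7 not apart, and all 10 reached 1 TPM in both libraries. Shares over all protein-coding genes were 14.6% lower and 8.78% higher. Beside Snu13, Nhp2 and Gar1, the scarcest was Shq1, an assembly chaperone of dyskerin, with 24.10 and 10.06 TPM and a log2 ratio of -0.53 that was not apart. The second gene lower in replicate 2, named after its values were seen, was Ruvbl1, an ATPase of snoRNP assembly, with 34.61 and 8.84 TPM. The median turned to -0.23 with scaling to total counts or ratios of TPM, where the medians of all genes were -0.47 and -0.44.

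The 34 genes of the small subunit processome had a median log2 ratio of -0.49, with 6 lower and 1 higher in replicate 2. Beside these calls, 14.6% of protein-coding genes were lower and 8.78% higher. Rrp9, a protein of the U3 snoRNP, was the most abundant, with 613.40 TPM in replicate 1 and 954.43 TPM in replicate 2, and Imp3, a partner of the U3 RNA, had 132.06 and 112.56 TPM. Nol11 was lowest with 1.26 and 0.32 TPM, and none of the 3 was apart. Nol10 was the most apart downward, with 19.67 and 1.47 TPM and a log2 ratio of -3.24 (interval -3.59 to -2.93). Pno1, which acts late in small subunit maturation, was higher in replicate 2, with 12.05 and 25.12 TPM and a log2 ratio of 1.55 (interval 1.36 to 1.74).

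The 35 genes of large subunit assembly had a median log2 ratio of -0.47, with 11 lower and 1 higher in replicate 2. As above, the protein-coding shares were 14.6% lower and 8.78% higher. Eif6, which keeps immature large subunits from joining small ones, led with 502.71 and 553.26 TPM, and Rrp1b followed with 271.50 and 450.56 TPM, neither of them apart. Nip7 was scarcest, with 1.5 and 0.23 TPM and a log2 ratio of -2.19 (interval -3.20 to -1.39). Sbds, which releases Eif6 from the large subunit, was lower in replicate 2, with 28.97 and 3.69 TPM and a log2 ratio of -2.45 (interval -2.76 to -2.16). Rrs1, a factor that brings 5S ribosomal RNA into the particle, was higher, with 65.27 and 124.42 TPM and a log2 ratio of 1.42 (interval 1.35 to 1.49). Eif6 and Sbds, whose proteins act on the same step, therefore differed in their ratios, 0.71 for Eif6 with an interval from 0.65 to 0.78.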

How the data were processed

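The 2 libraries were read from both fragment ends and hold polyA RNA, per the labels. The authors worked on mm10 with GENCODE M4, per the file headers and readmes. No aligner or quantifier is named in the sources used here. The authors gave expected counts, TPM, FPKM, posterior mean TPM and a posterior SD of the count, which carries the scale of the count. The deposited percent is the share of a transcript in the TPM of its gene.

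Of 43346 Ensembl rows, 42462 matched GENCODE M21 by identifier without version, and symbols, positions and sequences were taken from there. Expected counts were rounded to whole numbers and scaled by TMM (edgeR 4.0.16, R 4.3.3), with DESeq2 1.42.0 size factors as an alternative. Ratios between libraries had a prior count of 0.5 and a minimum of 20 counts. edgeR's quasi-likelihood test has no residual degrees of freedom between 2 single libraries, so no p-value was computed; on simulated data with counting error alone, the ratio criterion recovered 199 of 200 genes changed 4-fold and called 2 unchanged genes, of 12547 genes in all. edgeR's common biological coefficient of variation for the libraries was 0.561. The simulated data did not include such variation, so they do not give the rate of calls in these libraries. Pseudogenes were matched by 30 or more shared words of 25 bases. Software was Python 3.11.15, scipy 1.17.1, pandas 2.3.3, numpy 2.4.6, Biopython 1.88 and matplotlib 3.10.9.

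The 10 genes, the lists and the tests were chosen with earlier results of these data known. Named genes were the 10, and of each of the 4 other biogenesis lists the 2 highest, the lowest and the most apart in each direction; the leading transcripts and any with at least 20% in both libraries; and the 2 pseudogenes of a gene with most counts. Ubtf-212, Ncl-201, the longest coding form of Npm1 and the motif TTCCCAGAA were chosen after their values were seen. Alternatives were other scalings, priors, count and TPM minimums, folds, posterior mean TPM, FPKM, TPM over nuclear protein-coding genes other than globins, and each library alone.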

Additional observations from a re-analysis of the deposited data

How the results depend on the processing

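The count of the 10 genes apart was 4, and was 7 at a fold of 1.5 and 1 at a fold of 3. It was 3 with a prior count of 5, 5 with pseudogene rows added, and 6 with scaling to total counts or ratios of TPM. For the folds of 1.5 and 3, the prior count of 5 and the added pseudogene rows, no share over all protein-coding genes is given. Those counts therefore cannot be set against a background. The count of other biogenesis genes apart was 24, and 38 with ratios of TPM. The median log2 ratio of the 10 genes was -0.80, and was -1.23 with total counts, -1.41 with ratios of TPM and -0.96 with pseudogene rows added. The cause of these moves was not tested. None of the ratios of the 10 genes changed sign under these alternatives, while the median of the 10 other snoRNP genes turned from 0.20 to -0.23 with total counts or ratios of TPM. Without 1 replicate, the median gene had 25 to 62.0 TPM, 10 of the 10 genes reached 1 TPM, and 80 to 91 of the others did. The genes with the same leading transcript numbered 8 by TPM, posterior mean TPM and counts, the 3 with a single transcript included, although by counts another form led Nop58 in replicate 1. Dkc1, with 293 and 79 counts, and the scarce pathway genes are the least precise. No paired analysis was possible because the series has 1 group, so there is no contrast to block by replicate number. The added pseudogene counts and the levels per coding kilobase were chosen after seeing the data.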
